A study of Mus musculus with 12 samples.

Results

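The Myc, Max and Mxd network was examined through the 9 of its genes whose symbols were looked up in the deposited table, which lists 17419 genes. They are Myc, Max, Mxd1, Mxi1, Mxd3, Mxd4, Mnt, Mga and Mlx. The table gives a read count for each gene in 12 libraries of NIH-3T3, a wild-type mouse fibroblast line that is immortalised. All cells were grown in the same medium with newborn calf serum. Cells in 5 groups received 4-thiouridine (4sU) at 800 µM for 15, 30, 60, 90 or 120 min, and the sixth group, no4sU, received none. Each group had 2 libraries, replicates A and B. This analogue of uridine enters RNA as it is made. In SLAM-seq, iodoacetamide treatment causes 4sU to be read as C, which allows new and old transcripts of a gene to be told apart. The series title names the question, which is how the duration of labelling biases quantification. Nothing in the labels says that the replicates were separate cultures, so p-values below measure only the spread between these libraries. All values come from a single cell line.

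Max is a small basic helix-loop-helix leucine zipper protein that pairs with the other members apart from Mlx. Myc-Max pairs bind E-box sequences and raise transcription of growth and ribosome biogenesis genes, while pairs of Max with Mxd1, Mxi1, Mxd3, Mxd4 or Mnt bind similar sequences and recruit Sin3 repressor complexes. In fibroblasts, Myc is a classic early gene of the serum response, and its mRNA is known for fast decay. Mga is a very large Max partner in a Polycomb complex, and Mlx pairs with Mnt, with some Mxd proteins and with the Mondo proteins, which sense sugar phosphates.

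The canonical E-box, CACGTG, is the letter sequence that these proteins bind, so promoters of the network genes were searched for it. The motif is its own reverse complement, and a single search covers both strands. All of the 9 genes but Myc had promoter entries in the RefSeq table (build GRCm38.p6), each covering 300 bases from 250 before to 50 after a start site. CACGTG was found for 4 of these 8 genes, namely Max, Mxd4, Mnt and Mlx. Across the table, 8.09% of 27025 genes and 7.15% of 32851 promoters held it. The stretches around the 4 matches are shown because they place the letters that Myc-Max and Mxd-Max pairs are known to recognise beside genes of the network itself. They are printed 5′ to 3′ on the gene's strand, with the E-box in capitals.
Max: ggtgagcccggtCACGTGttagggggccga
Mxd4: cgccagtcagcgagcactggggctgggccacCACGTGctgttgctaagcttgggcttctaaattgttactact
Mnt: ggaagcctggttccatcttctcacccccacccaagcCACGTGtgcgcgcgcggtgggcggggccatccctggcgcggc
Mlx: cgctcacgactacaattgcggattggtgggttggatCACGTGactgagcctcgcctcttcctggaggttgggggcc

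The Max stretch lies at chr12:76962234-76962263 on the minus strand, and the first base of its E-box is at -3 from the start site. The Mxd4 stretch lies at chr5:34187888-34187960 on the minus strand with the E-box at -219. Mnt has its E-box at -123, within chr11:74830765-74830842 on the plus strand. Mlx has its E-box at -40, within chr11:101087214-101087289 on the plus strand. Windows of Mxd1, Mxi1 (3 promoters), Mxd3 and Mga did not hold these letters. A match is a description of the sequence and says nothing of binding in these cells.

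All 9 genes are protein coding in GENCODE M21 on GRCm38. Myc (ENSMUSG00000022346) spans chr15:61985391-61990374 on the plus strand, and Max (ENSMUSG00000059436) spans chr12:76937269-76962201 on the minus strand. Mxd1 (ENSMUSG00000001156) lies at chr6:86647042-86669161 on the minus strand and Mxi1 (ENSMUSG00000025025) at chr19:53310518-53375810 on the plus strand. Mxd3 (ENSMUSG00000021485) and Mxd4 (ENSMUSG00000037235) are both on the minus strand, at chr13:55325168-55329823 and chr5:34173883-34187720. Mnt (ENSMUSG00000000282) lies at chr11:74830920-74845725, Mga (ENSMUSG00000033943) at chr2:119897228-119969581 and Mlx (ENSMUSG00000017801) at chr11:101087277-101092207, all on the plus strand. Exons of 4 members share bases with a gene on the opposite strand: 514 bases of Mxd4 with the antisense gene Gm42846, 385 bases of Mlx with Psmc3ip, 194 bases of Mxi1 with Gm10197, and 105 bases of Mxd3 with Prelid1. No source used here gives the use of strand in counting, so the counts of these 4 members are uncertain to that extent.

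Library totals ranged from 9917026 to 13739380 counts. Fibroblast identity was checked with 9 markers, and all 9 had a median above 1 CPM (counts scaled to library size), with a summed level of 16060 to 19630 CPM per library. Epithelial and muscle markers summed to at most 0.582 and 0.301 CPM, with Krt8 and the endothelial gene Kdr at a median of 0. Immune markers summed to 4.28 to 6.88 CPM, nearly all from Cd68, and endothelial markers to 0.75 to 1.70 CPM. The 2 no4sU libraries stood further apart than replicates of the labelled groups. Over the 9065 genes averaging 100 counts or more, the SD of the log2 difference of A and B was 0.205 in no4sU and 0.112 to 0.122 in the labelled groups. Across these genes, which are not independent of each other, the no4sU difference was related to gene length (Spearman rho -0.576). Mga, with 13931 bases the longest member, was at 79.2 CPM in no4sU replicate A and at 114 CPM in replicate B. Where leaving out either of these libraries changed a call against no4sU, the fold change without it is given beside the results.

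Levels of different genes were compared per kilobase of gene length. Myc had the highest level, with a median over the 12 libraries of 57.8 CPM per kilobase (range 46.7 to 68.3). Max, the common partner, followed at 30.2 (27.8 to 32.1). Mlx at 16.8 (15.4 to 19.6) and Mnt at 14.0 (11.3 to 15.7) had overlapping ranges, so their order is not resolved. Mga was lower at 7.05 (5.68 to 8.19). Mxi1 at 4.85 overlapped with Mxd3 at 3.94, and Mxd3 with Mxd4 at 3.52 CPM per kilobase. Mxd1 was lowest at 1.11 (0.833 to 1.47), apart from Mxd4 (2.53 to 3.94). Against the genes averaging 100 counts or more, Myc and Max ranked at the 87.6th and 74.2nd percentile per kilobase, whereas the 4 Mxd genes, Mxi1 among them, were at or below the 15.2nd percentile. Mxd1 and Mxd3 are not in this set themselves, so they are ranked against genes with more counts. Mxd1 and Mxd3 had mean counts of only 59.5 and 79.9 per library, which makes their estimates the least precise.

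The new-to-total ratio (NTR) is the estimated share of a gene's RNA that was made during labelling. It is deposited per library as a posterior maximum with a 90% interval. Among the 9065 genes, the median NTR was 1.34% and 0.67% after 15 min in replicates A and B, 15.2% and 15.8% after 60 min, and 35.8% and 35.0% after 120 min. The network genes spread from near that median to near the top of all genes, as the plot of NTR by labelling time shows.

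**Figure D1:**
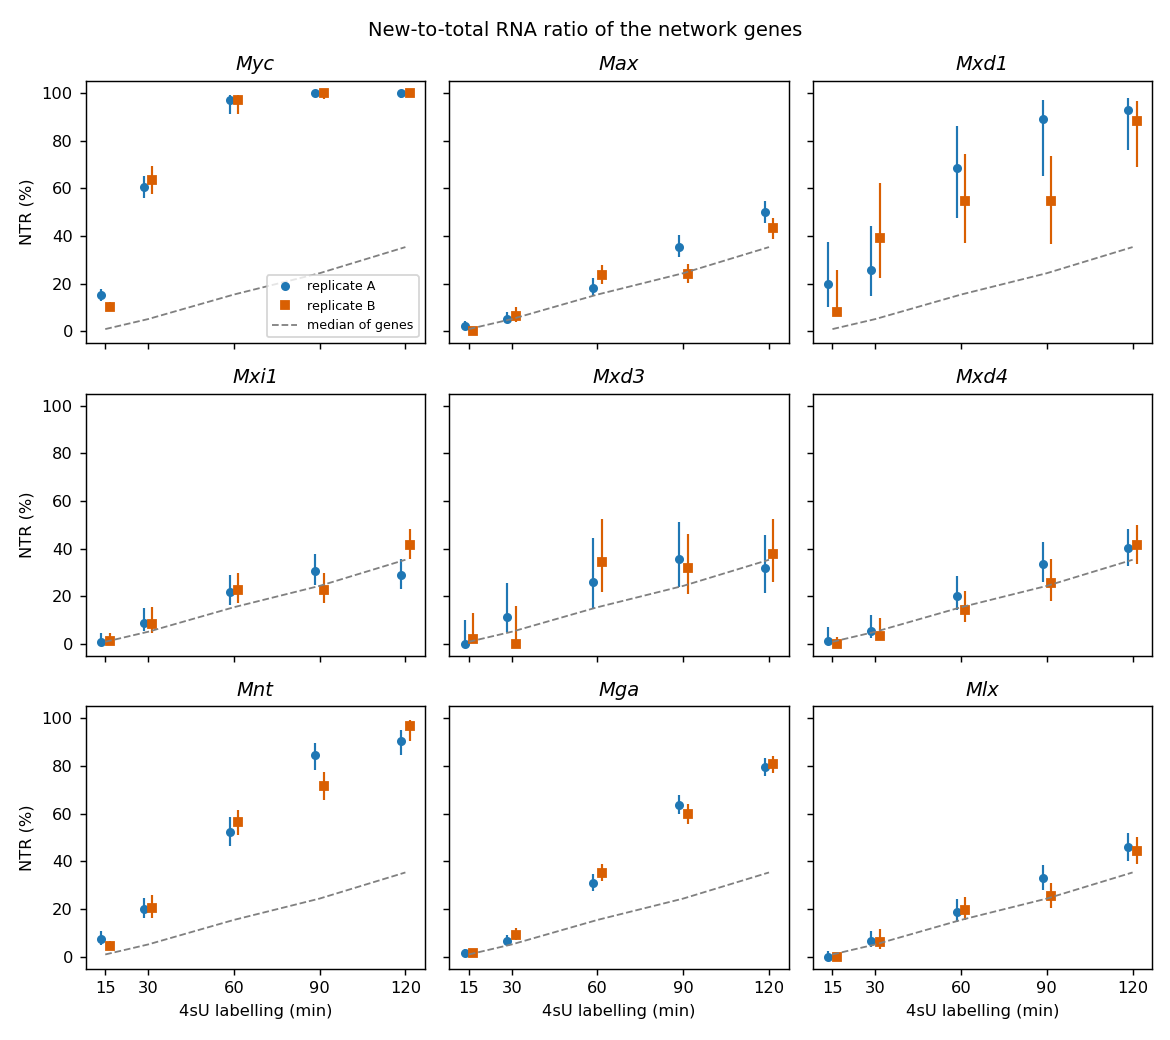
New-to-total ratio (NTR, in percent) of the 9 network genes against 4sU labelling time in minutes. Points are the posterior maximum in replicates A (circles) and B (squares), vertical lines are the deposited 90% intervals, and the dashed line is the median of 9065 genes averaged over the replicates. Myc reaches 97.0% and 97.2% after 60 min, while Max, Mlx, Mxi1, Mxd3 and Mxd4 stay within 28.8% to 50.0% after 120 min.

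Myc, the activating member, had the highest mean NTR of the network from 30 min on, but not all intervals were apart. Its intervals overlapped with those of Mxd1 in both replicates at 15 min and in replicate B at 30 min. In replicate B at 15 min its interval also overlapped with that of Mxd3. At 120 min its intervals overlapped with Mxd1 in replicate A and with Mnt in replicate B. The NTR of Myc was 15.1% and 10.2% after 15 min in A and B, and 60.5% and 63.5% after 30 min. By 60 min it was 97.0% (90% interval 91.3 to 99.2) and 97.2% (91.3 to 99.2), and it was listed at 100% in all 4 libraries at 90 and 120 min. Both replicates gave nearly the same course from 30 min on. A value of 100% lies above the upper end of its own interval, which began at 97.54% to 99.01% in these 4 libraries, so it marks the limit of the estimate. Myc stood at the 99.5th to 99.8th percentile of all genes at 15 to 60 min. The 3 genes with the most similar NTR over the 10 labelled libraries were Ier2, Ccnl1 and Rgs16, with root mean square differences of 2.26, 2.35 and 2.99 percentage points. Ier2 is an immediate early gene, Ccnl1 encodes a cyclin linked to splicing, and Rgs16 encodes a regulator of G-protein signalling.

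Max, the common partner, had a far lower NTR than Myc from 30 min on, with intervals apart in both replicates. The NTR of Max was 2.18% and 0.28% after 15 min, 5.36% and 6.51% after 30 min, and 18.4% and 23.6% after 60 min. It reached 35.6% and 24.0% after 90 min, where the intervals of A and B did not overlap (31.2 to 40.3 and 20.4 to 28.2), and 50.0% and 43.3% after 120 min. Max was at the 65.9th and 60.4th percentile of genes after 120 min, in the middle of the range. The most similar genes were Mospd2, Ttpal and 2610301B20Rik, with differences of 1.35, 1.54 and 1.94 points.

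Among the repressive partners of Max, Mnt and Mxd1 had NTRs far above the median of genes. Mnt, the broadly expressed antagonist of Myc, had an NTR of 7.39% and 4.46% after 15 min, 20.1% and 20.7% after 30 min and 52.3% and 56.3% after 60 min. It was at 84.6% and 71.8% after 90 min, with intervals that did not overlap, and at 90.5% and 96.8% after 120 min. Mnt thus lay below Myc at every duration up to 90 min in both replicates, with intervals apart. Mxd1, which is best known from differentiating cells, had 26.0% and 39.2% after 30 min, 68.4% and 54.9% after 60 min, and 92.7% and 88.1% after 120 min. Its counts were low and its intervals wide, for instance 47.6 to 86.3% and 37.1 to 74.2% after 60 min, and it could not be ordered against Mnt.

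The other Mxd genes had lower NTRs. Mxi1 had an NTR of 21.9% and 22.8% after 60 min and of 28.8% and 41.8% after 120 min. Mxd4 had 20.3% and 14.5% after 60 min and 40.3% and 41.4% after 120 min. Mxd3, a member linked to S phase, had 26.3% and 34.6% after 60 min and 31.9% and 37.6% after 120 min. The intervals of these 3 genes overlapped at both times. At 120 min all 3 lay near the median of genes.

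Mga stood higher among genes from 60 min on than at 15 and 30 min. Its NTR was 1.70% and 1.45% after 15 min and 6.84% and 9.30% after 30 min, close to Max and Mlx. At 60 min it was at 31.0% and 35.3%, after 90 min at 63.8% and 60.0%, and after 120 min at 79.6% and 80.8%. The mean percentile of Mga among genes was 67.3 after 15 min, 68.9 after 30 min, 82.9 after 60 min, 88.5 after 90 min and 87.2 after 120 min. Mlx, by contrast, was listed at 0% in both 15 min libraries, with upper interval ends of 2.50% and 1.36%. It then had 6.59% and 6.25% after 30 min, 19.0% and 19.6% after 60 min and 46.0% and 44.5% after 120 min, close to Max at each of these times.

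Neighbours in the order of NTR were called separated where their 90% intervals did not overlap in either replicate. At 60 min this held for Myc above Mxd1 and for Mnt above Mga. At 120 min it held only for Mga above Max, so Myc, Mnt, Mxd1 and Mga formed an upper group of 79.6% to 100% and Max, Mlx, Mxd4, Mxi1 and Mxd3 a lower group of 28.8% to 50.0%. The same pairs were separated with the posterior mean. Conversions can arise only at uridines, and the longest annotated transcript of Myc and of Mnt held 21.6% and 20.7% U, against a median of 25.1% over 9056 genes and 27.8% in Mga. The part of base content in the NTR was not tested. With 2 libraries a group, an exact permutation test of 2 durations cannot go below p = 0.333, so NTR levels were not tested.

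The product of NTR and CPM splits each level into new and old RNA. For Myc, old RNA was at 128 and 133 CPM after 15 min, 61.1 and 49.1 CPM after 30 min and 4.08 and 3.49 CPM after 60 min. For Mga, new RNA averaged 1.65 CPM after 15 min, 32.5 CPM after 60 min and 68.4 CPM after 120 min, while its old RNA averaged 103, 65.7 and 16.9 CPM. Max had 57.4 and 58.5 CPM of old RNA after 15 min and still 27.8 and 30.6 CPM after 120 min. New RNA thus made up nearly all counted Myc RNA after 60 min, whereas Max still held about as much old as new RNA after 120 min.

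Total RNA of Myc, Mnt and Mga was lower after long labelling. Myc was at 160 and 141 CPM in no4sU (A and B), 150 and 148 after 15 min, 155 and 134 after 30 min, 136 and 125 after 60 min, 130 and 120 after 90 min and 128 and 109 after 120 min. Both 120 min libraries lay below both 15 min and both no4sU libraries. In these bulk samples, fewer cells with the transcript and less of it per cell cannot be told apart. At 120 against 15 min the log2 fold change of Myc was -0.34 ± 0.08 (SE), with an adjusted p of 0.00780 in edgeR's quasi-likelihood test with Benjamini-Hochberg adjustment over 11564 genes. Leaving out replicate A of the 15 min group (-0.33, edgeR adjusted p = 0.0778) or replicate B of the 120 min group (-0.23, edgeR adjusted p = 0.161) ended the call.

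Mnt showed the largest fall among the members in this comparison. It was at 65.6 and 72.2 CPM in no4sU, 67.2 and 69.0 after 15 min, 63.1 and 68.5 after 30 min, 60.9 and 69.9 after 60 min, 57.8 and 59.7 after 90 min and 52.0 and 52.5 after 120 min. All 4 libraries at 90 and 120 min were below the 8 others. The log2 fold change at 120 against 15 min was -0.38 ± 0.08 (edgeR adjusted p = 0.00244), and the call held in each edgeR fit with 1 library left out.

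Mga was at 106 and 102 CPM after 15 min, 104 and 104 after 30 min, 101 and 95.3 after 60 min, 91.6 and 86.5 after 90 min and 85.6 and 85.0 after 120 min. The groups from 30 to 120 min did not overlap with each other, each lying below the previous. Its log2 fold change at 120 against 15 min of -0.29 ± 0.10 did not pass the threshold in the fit of all 12 libraries (edgeR adjusted p = 0.0545). In the fit of the 10 labelled libraries alone the same difference of -0.29 had an edgeR adjusted p of 4.516e-05. The difference between the no4sU libraries in Mga, noted above, enters the first of these fits and not the second. Its part in the lower adjusted p was not tested. The change between the fits was not particular to Mga. At 120 against 15 min, 2228 genes were called in the first fit and 3700 in the second. The edgeR adjusted p of Myc and of Mnt was also lower in the second fit.

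Max was at 61.0 and 60.8 CPM in no4sU, 58.7 and 58.7 after 15 min, 62.4 and 58.7 after 30 min, 58.9 and 59.9 after 60 min, 54.7 and 56.4 after 90 min and 55.6 and 54.0 after 120 min. Both 120 min libraries lay below both 15 min libraries, but the log2 fold change of -0.10 ± 0.07 did not pass (edgeR adjusted p = 0.311). Mlx ranged from 30.4 to 38.5 CPM, Mxi1 from 22.8 to 27.2, Mxd4 from 11.7 to 18.2, Mxd3 from 5.59 to 8.11 and Mxd1 from 3.89 to 6.87 CPM over the 12 libraries. None of these 5 genes passed at 120 against 15 min, with log2 fold changes of -0.10 (Mxd1) to 0.07 (Mxd4) and edgeR adjusted p of 0.750 to 0.925.

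**Figure D2:**
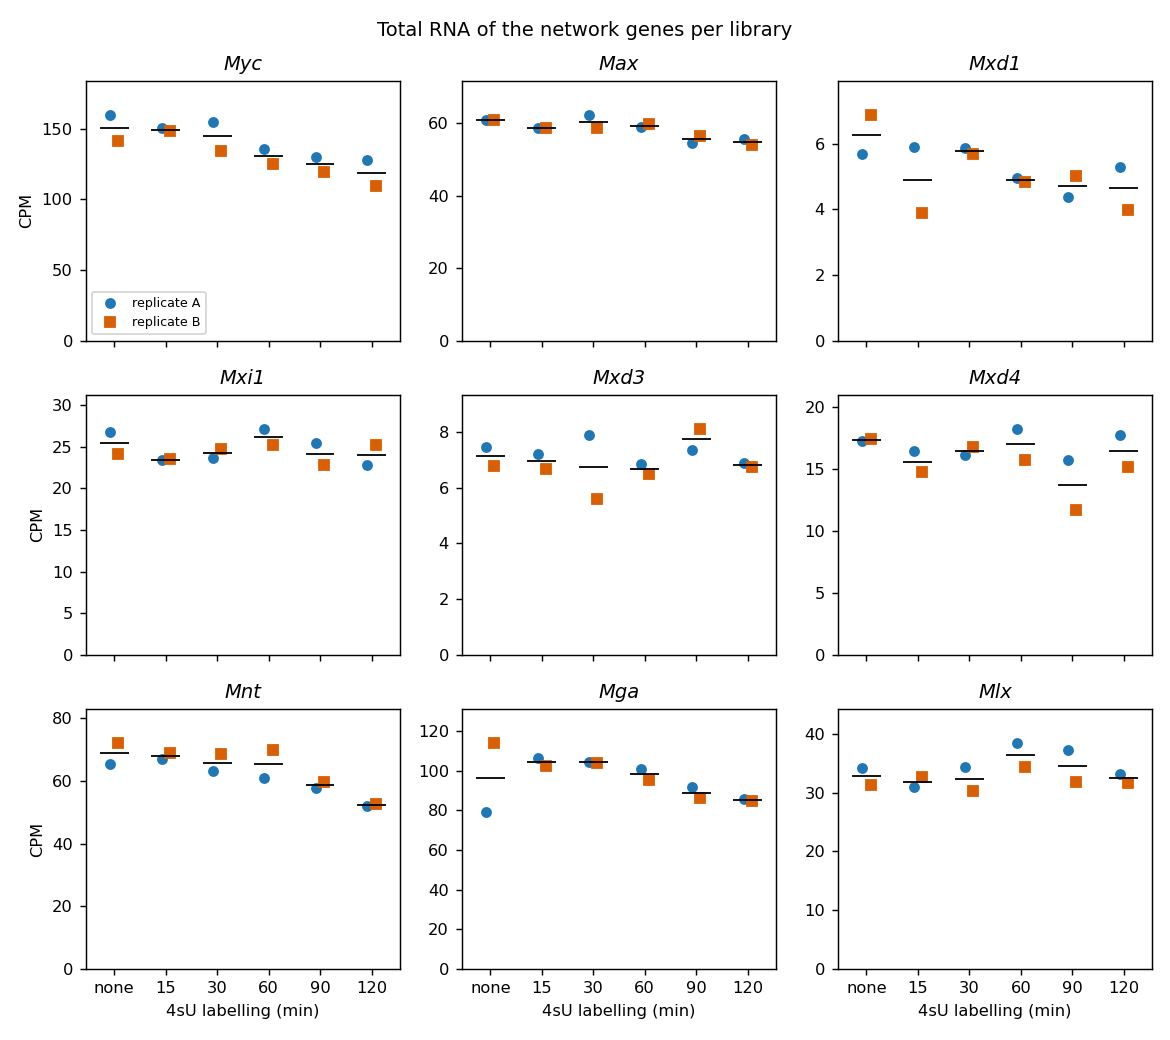
Total RNA of the 9 network genes in CPM (linear axis from 0) in the no4sU group and at 5 labelling times in minutes. Points are replicates A (circles) and B (squares) and black bars are the means of 2 libraries. Myc and Mnt are lower in both 120 min libraries than in any no4sU or 15 min library, while in Mga the 2 no4sU libraries, at 79.2 and 114 CPM, lie on either side of the 15 and 30 min values.

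In all, 2 of 9 members were called at 120 against 15 min, both lower, where 11.3% of all genes tested were called lower, 7.93% higher and 19.3% in either direction. The 120 min libraries lay below the 15 min libraries without overlap for 4 of 9 members (Myc, Max, Mnt and Mga), a pattern found in 32.7% of all genes. Against no4sU, 120 min gave the same 2 calls, Mnt at -0.40 ± 0.08 (edgeR adjusted p = 0.00223) and Myc at -0.34 ± 0.08 (edgeR adjusted p = 0.00877), with 8.78% of genes called lower, 5.43% higher and 14.2% in either direction. This comparison and the previous one share the 120 min libraries. Without no4sU replicate A, Mga was at -0.42 and Mxd1 at -0.59, against -0.19 and -0.47 with both no4sU libraries. Without 120 min replicate B, Myc was at -0.24 and did not pass. In a fit of the no4sU and 120 min libraries alone neither Mnt (edgeR adjusted p = 0.0526) nor Myc (edgeR adjusted p = 0.1003) passed.

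Shorter labelling gave no call among the members in the edgeR fit used above. Myc was called at 90 min under other settings, and fold changes moved when a no4sU library was left out. Against no4sU, edgeR called 0 members at 15, 30, 60 and 90 min, where 0%, 0%, 0.0173% and 1.39% of all genes were called in either direction. DESeq2 also called 0 members at each of these durations. Other edgeR fits of all 12 libraries did call Myc at 90 min. It passed with library size scaling (-0.32, edgeR adjusted p = 0.0421), without a filter (-0.27, edgeR adjusted p = 0.00681) and with a replicate block (-0.27, edgeR adjusted p = 0.0298). At 15, 30, 60 and 90 min, 0, 0, 1 and 3 members had an unadjusted p under 0.05 in edgeR. Over all 11564 genes tested, 618, 670, 895 and 1869 did. In DESeq2 it was 0, 0, 1 and 2 members, and 240, 279, 412 and 1108 of these genes. Myc was at -0.20 ± 0.08 after 60 min and -0.27 ± 0.08 at 90 min against no4sU on the log2 scale (edgeR adjusted p = 0.560 and 0.107). For Mga the sign against no4sU depended on the no4sU library. At 60 min its log2 fold change was 0.01 with both, -0.22 without replicate A and 0.31 without replicate B. At 15 and 30 min it was 0.10 with both and 0.40 without replicate B. Without no4sU replicate B, Myc was at -0.30 after 60 min and at -0.36 after 90 min. Without no4sU replicate A, Mnt was at -0.30 and Mga at -0.36 after 90 min, against -0.23 and -0.13 with both. Each of these fits leaves 1 no4sU library, so only fold changes are given.

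The trend over labelling time used the 10 labelled libraries and none from no4sU. Per hour of labelling, Mnt changed by -0.21 ± 0.03 (edgeR adjusted p = 4.187e-06), Myc by -0.20 ± 0.03 (edgeR adjusted p = 9.261e-07) and Mga by -0.18 ± 0.03 (edgeR adjusted p = 5.144e-07) on the log2 scale. All 3 stayed past the threshold in each of the 10 edgeR fits with 1 library left out, with slopes between -0.24 and -0.17. Max changed by -0.08 ± 0.03 (edgeR adjusted p = 0.0447). Its call was lost in 6 of these 10 fits (highest edgeR adjusted p 0.143, without 120 min replicate B) and in DESeq2 (adjusted p = 0.0902). Thus 4 of 9 members fell and 0 rose, where 19.5% of all genes tested fell, 18.3% rose and 37.8% changed in either direction. At an unadjusted p under 0.05 the same 4 members passed in edgeR and DESeq2, where 5288 and 4577 of 11526 genes did. Slopes of the other 5 members ran from -0.13 ± 0.10 (Mxd1) to 0.03 ± 0.08 (Mxd3), with edgeR adjusted p of 0.340 to 0.893.

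Across all genes, the slope was lower where the NTR was higher, as the plot of slope against NTR shows. The 9065 genes, which include 7 of the members, were split into 10 classes by NTR after 120 min. The class of Myc and Mnt, with an NTR of 85.2 to 100%, had a median slope of -0.16 (quartiles -0.23 and -0.09), and that of Mga, with 67.8 to 85.2%, had a median of -0.13 (quartiles -0.20 and -0.08). Slopes of all 3 lay between the quartiles of their classes. The class of Max and Mlx had a median of -0.05 (quartiles -0.10 and 0.01), with Max inside and Mlx, at 0.02, above this range. The class of Mxd4 had a median of -0.02 and that of Mxi1 of 0.02. Counts were also recomputed with new RNA scaled up. The assumed losses of new RNA that brought the relation of fold change and NTR to 0 were 14.6% after 60 min, 22.5% after 90 min and 31.3% after 120 min, and 0 was applied at 15 and 30 min. At 15 min the value was negative, at -29.7% in replicate A and -2.82% in B, and means below 0 were set to 0. With new RNA scaled up accordingly, no member was called at 120 against 15 min or in the trend, and the slopes of Myc, Mnt and Mga were -0.00, -0.04 and -0.05 (edgeR adjusted p = 0.980, 0.456 and 0.168). This scaling raises genes of high NTR by construction, and with it a loss of labelled reads and a fall of short-lived transcripts cannot be told apart.

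**Figure D3:**
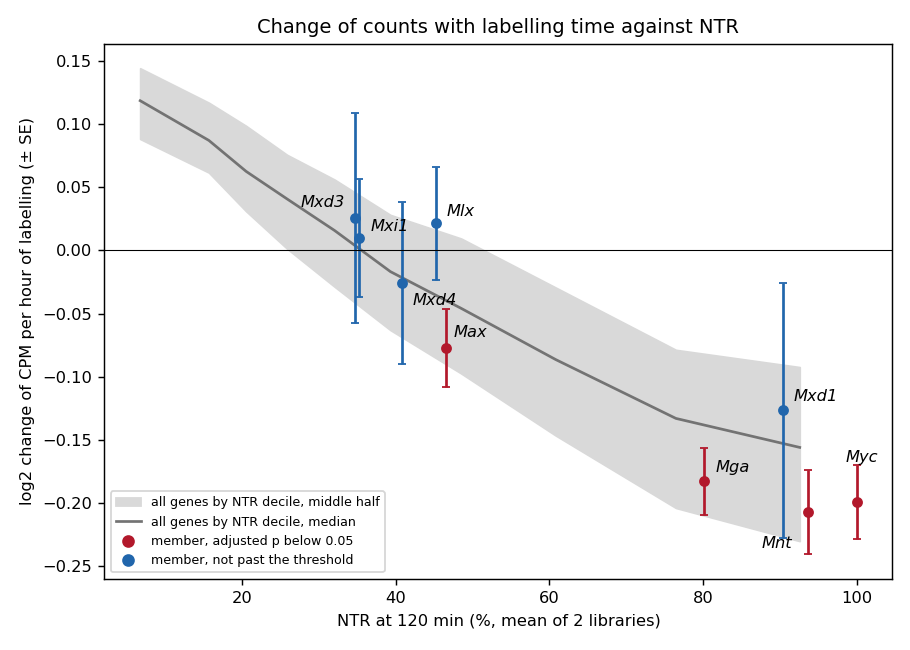
Change of total RNA per hour of labelling (log2 scale, with SE) against the NTR after 120 min (percent, mean of 2 libraries) for the 9 network genes. The line and shaded band are the median and the range between the quartiles of all genes by NTR decile, and red points are members with an edgeR adjusted p below 0.05. Myc, Mnt and Mga lie at high NTR with slopes of -0.20, -0.21 and -0.18. The band ends at the middle of the highest class, so Myc and Mnt, which belong to that class, are drawn to the right of its end.

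The apparent half-life was computed from each NTR by dividing ln 2 times the duration by -ln(1 - NTR). It should not depend on labelling time if both the turnover and the total level of a transcript are constant. For Myc it was 63.4 and 96.3 min after 15 min of labelling, 22.4 and 20.7 min after 30 min and 11.9 and 11.6 min after 60 min, with no value later because the NTR was listed at 100%. Myc was therefore not among the genes tested over 30 to 120 min, and its values at 15 to 60 min are a description. Mga had the largest proportional fall of the 6 members tested, from 253 ± 56.9 min (SD, n = 2) after 30 min to 104 ± 11.7 after 60 min, 64.7 ± 4.78 after 90 min and 51.4 ± 1.29 after 120 min of labelling. Mnt went from 91.2 ± 2.17 to 29.7 ± 7.91 min between 30 and 120 min, Max from 343 ± 48.5 to 133 ± 18.9 min, Mlx from 314 ± 12.1 to 138 ± 4.54 min and Mxd4 from 472 ± 155 to 159 ± 3.97 min. Mxi1 was at 226 ± 6.49 and 199 ± 64.1 min.

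Correlations of apparent half-life with labelling time were tested over the 8 libraries at 30 to 120 min, in 7830 genes, with two-sided exact permutation tests and Benjamini-Hochberg adjustment over all of them. Mga had a Pearson r of -0.870 (exact permutation p = 0.000794, adjusted p = 0.00331) and a Spearman rho of -0.976 with the same p-values, and Mnt an r of -0.927 (exact permutation p = 0.00238, adjusted 0.00651) and a rho of -0.927 (p = 0.00317, adjusted 0.00874). Mlx had an r of -0.900 (exact permutation p = 0.00476, adjusted 0.0107) and a rho of -0.878 (p = 0.0103, adjusted 0.0210). For Max r was -0.820 (exact permutation p = 0.0119, adjusted 0.0216) and rho -0.830 (p = 0.0198, adjusted 0.0358). For Mxd4 r was -0.792 (exact permutation p = 0.00635, adjusted 0.0133) and rho -0.830 (p = 0.0198, adjusted 0.0358). Mxi1 did not pass, with an r of -0.1246 (exact permutation p = 0.740, adjusted 0.769) and a rho of 0 (p = 1, adjusted 1). The apparent half-life thus fell for 5 of the 6 members tested, where 64.2% of the 7830 genes fell, so this is a share near that of all genes.

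Without the 120 min libraries r was -0.909 for Mga, -0.932 for Mnt, -0.861 for Mlx, -0.775 for Max, -0.815 for Mxd4 and -0.262 for Mxi1. By r, Max lost its call without 30 min replicate A, 90 min replicate A or either 120 min library, and Mxd4 lost it without either 120 min library, with adjusted exact permutation p of 0.0520 to 0.0754 for Max and of 0.0531 and 0.0535 for Mxd4. By rho, Mlx and Max lost their calls without any single library at 30 or 120 min and Mxd4 without any at 30 or 60 min (adjusted exact permutation p of 0.0547 to 0.114). Mga and Mnt kept theirs by both measures in all 8 such tests. The 15 min libraries give few usable values because many NTRs are near 0. Mxd1 and Mxd3 had too few counts for the test.

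**Figure D4:**
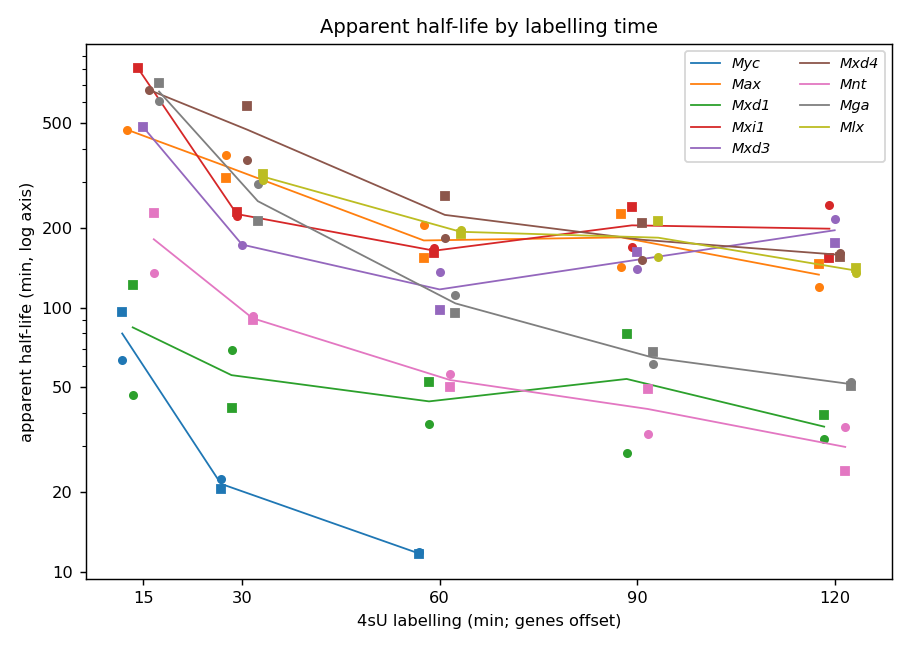
Apparent half-life in minutes (log axis) of the 9 network genes against 4sU labelling time in minutes, with genes slightly offset. Points are replicates A (circles) and B (squares) and lines join the means of the libraries with a value. Mga runs from 253 min after 30 min of labelling to 51.4 min after 120 min, and Myc has no value after 60 min.

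Other genes of the pathway were taken from lists, and each was counted at 120 against 15 min and in the trend. Over all genes tested, the medians were 0.01 and 0.00 on the log2 scale, 7.93% were called higher and 11.3% lower at 120 against 15 min, and 18.3% higher and 19.5% lower in the trend. The counts of each list stand beside these shares as a description, and no list was tested. Of the other network genes, 3 of 4 were in the table and 1 fell, Mlxip, which encodes the Mondo partner of Mlx (-0.27 ± 0.07, edgeR adjusted p = 0.00902). Mycn and Mycl, paralogs of Myc, had medians of 3.93 and 1.01 CPM and did not pass. Of 17 cofactors, Sin3b rose (0.23 ± 0.08) and Sin3a (-0.22 ± 0.07) and Wdr5 (-0.19 ± 0.06) fell. Sin3a and Sin3b encode the scaffolds that Mxd proteins recruit, and Wdr5 a chromatin partner of Myc. In the trend 7 cofactors rose and 4 fell, with a median slope of 0.04, whereas 1 rose and 4 fell when libraries were scaled by size alone. At 120 against 15 min that scaling gave 0 rises and 3 falls, and DESeq2 called 0 of the 17.

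Enzymes that act on the stability of the Myc protein moved down. At 120 against 15 min 4 of 9 fell and 0 rose, with a median of -0.23. The deubiquitinases Usp36 (-0.38 ± 0.07) and Usp28 (-0.34 ± 0.10) protect Myc from degradation, whereas the kinase Gsk3b (-0.29 ± 0.08) and the ligase subunit Skp2 (-0.23 ± 0.08) act in its turnover, so both kinds were among the 4. DESeq2 called 2 of them, Usp36 and Gsk3b. In the trend 5 fell and 3 rose, and under scaling by library size 6 fell and 0 rose.

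Of 22 Myc-activated targets, 4 rose and 1 fell at 120 against 15 min, with a median of 0.09. Nme1, a nucleoside diphosphate kinase (0.25 ± 0.06), Bop1 of ribosome biogenesis (0.20 ± 0.07), the cell cycle kinase gene Cdk4 (0.16 ± 0.05) and the lactate dehydrogenase gene Ldha (0.15 ± 0.05) rose, and Polr1b, a subunit of RNA polymerase I, fell (-0.22 ± 0.06). The 4 that rose had low NTRs after 120 min, of 10.3% (Ldha) to 15.6% (Bop1). Over all genes, the classes with an NTR of 0.205 to 13.35% and 13.36 to 18.07% had median slopes of 0.12 and 0.09. Slopes of these 4 targets were 0.11 (Ldha), 0.15 (Nme1), 0.09 (Cdk4) and 0.11 (Bop1). In the trend 13 rose and 3 fell. Under scaling by library size 1 rose and 2 fell at 120 against 15 min, and 9 rose and 4 fell in the trend, while 4 rose and 1 fell in the trend with new RNA scaled up. DESeq2 called the same genes at 120 against 15 min apart from Bop1.

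Of the Myc-repressed targets, 5 of 6 were in the table. Cdkn1a, a brake on the cell cycle, rose (0.32 ± 0.06, edgeR adjusted p = 0.00193) with an NTR of 96.5% after 120 min, while the related inhibitor gene Cdkn1b (-0.44 ± 0.08) and the stress gene Gadd45a (-0.64 ± 0.17) fell. In the trend 1 rose and 4 fell. Of the Mga complex, 8 of 9 genes were tested, and Pcgf6 (-0.53 ± 0.09) and Rybp (-0.43 ± 0.11), subunits of the Polycomb complex that holds Mga, fell at 120 against 15 min, while 0 rose. In the trend 2 rose and 3 fell, against 0 and 4 under scaling by library size. Txnip, a target of Mlx-Mondo pairs and an inhibitor of glucose uptake, fell (-0.45 ± 0.13, edgeR adjusted p = 0.0190), and both Txnip and Arrdc4 fell in the trend. Library size scaling moved the share of lower calls among all genes from 58.8% to 81.4% at 120 against 15 min, from 61.8% to 89.2% at 120 min against no4sU and from 51.6% to 72.1% in the trend. The calls of Myc and Mnt were kept under it, and Mga passed at 120 against 15 min (-0.35, edgeR adjusted p = 0.0225) and Max at 120 min against no4sU (-0.22, edgeR adjusted p = 0.0278). With new RNA scaled up by the assumed losses, Cdkn1a was the only gene of these lists still called at 120 against 15 min.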

How the data were processed

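Per the labels' protocols, RNA of NIH-3T3 cells was treated with iodoacetamide after 4sU labelling. Cutadapt, Bowtie2 2.3.0 and STAR 2.7.10b are named in the submitters' processing notes. Not given in the sources used here are their roles, the genome build, annotation, counting tool, use of strand and NTR model. The authors deposited estimated counts per gene, not scaled between libraries, of which 20.4% were not whole (tolerance 1e-06). For the count tests they were rounded. Per the file headers the NTR is a fraction (posterior maximum, mean, and 0.05 and 0.95 quantiles), shown here in percent. The deposited alpha and beta columns, each a score, were not used. Gene lengths in bases came from the deposited table.

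Groups came from sample titles. Counts were filtered (filterByExpr, 11564 genes; 11526 in the labelled libraries), scaled by TMM (factors 0.970 to 1.02) and tested with edgeR 4.0.16 in R 4.3.3, in a single fit of all 12 libraries or, for the trend, of 10. Significance was an adjusted p below 0.05. CPM used TMM library sizes. DESeq2 1.42.0, other scalings and filters, a replicate block, leaving out libraries and scaling up new RNA by the implied loss (log2 of CPM plus 1) were alternatives. Half-lives used genes averaging 100 counts or more and an NTR of 1% to 99% in all 8 libraries. The tests were checked on simulated data. Intervals describe the NTR estimate of a library and not variation between cultures. Python 3.11.15 with scipy 1.17.1 was used.

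Named were all 9 members, from each list up to the 4 called genes with the largest change at 120 against 15 min (Mycn, Mycl and Arrdc4 were named outside this rule, after their values were seen), and the 3 genes nearest to Myc and Max in NTR. Members and lists were chosen with earlier results of these data known.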

Additional observations from a re-analysis of the deposited data

How the results depend on the processing

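The number of members called was 2 at 120 against 15 min and at 120 min against no4sU, 4 in the trend and 5 for the half-life. With new RNA scaled up by the implied loss, 0 members were called at 120 against 15 min, at 120 min against no4sU and in the trend, and a fit of the no4sU and 120 min libraries alone also gave 0. At 90 min against no4sU, scaling by library size, no filter and the replicate block each called 1 member, Myc. At 120 against 15 min 3 members were called with library size scaling, no filter, the 10 labelled libraries or the 15 and 120 min libraries alone. Library size scaling also gave 3 at 120 min against no4sU, and no filter and DESeq2 each gave 3 in the trend. Deviations of same-lettered libraries correlated at -0.042 to 0.068 between groups, so no strong shared deviation was seen. This cannot show whether libraries of the same letter were handled together, which the sample titles do not say. The replicate block gave 2 members at 120 against 15 min, 2 at 120 min against no4sU and 4 in the trend, as without it. Apart from the call of Myc at 90 min against no4sU, it changed no count of members. Leaving out 1 library gave 1 to 3 members at 120 against 15 min, 3 to 4 in the trend, 0 to 1 at 15 and at 30 min against no4sU, 0 to 2 at 60 and at 90 min, 1 to 4 at 120 min, and 3 to 5 for the half-life by Pearson r. By Spearman rho it gave 2 to 5. Half-lives from 15 to 120 min fell for 2 of 2 members tested, where 1658 of 2202 genes fell. Those at a mean count of at least 1000 fell for 1 of 1 member, where 1827 of 2576 genes fell. Fewer genes qualified in both settings. The posterior mean gave 96.94% for Myc at 60 min. Mga at 60 min against no4sU was reversed to -0.22 without no4sU replicate A and was 0.31 without replicate B.

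Over all genes, 2228 were called at 120 against 15 min, 1453 in DESeq2, 3700 in the 10 labelled libraries, 3818 in the 15 and 120 min libraries alone, 249 after loss scaling and 657 to 3701 with a library left out. At 120 min against no4sU the count was 1643, against 1059, 171 in the 2 groups alone, 190 after loss scaling and 452 to 3533. At 90 min it was 161, against 284 with library size, 438 without a filter, 15 after loss scaling, 2 in the 2 groups alone and 8 to 1442. At 60 min it was 2, with 15, 95, 4 (replicate block), 8 (DESeq2), 1 (loss scaling), 0 (2 groups alone) and 0 to 1213. At 15 and at 30 min it was 0, with 9 without a filter and up to 1336 and 1363 without no4sU replicate B. The trend gave 4362 and 1551 after loss scaling. Falling half-lives numbered 5025, against 1658 from 15 min, 1827 at the higher count, and 3008 to 5215. The counts of falling half-lives from 15 min and at the higher count come from smaller sets, of 2202 and 2576 genes. The cause of the other differences was not tested.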
